A study of Mus musculus with 6 samples.

Results

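Acetylcholine, noradrenaline, dopamine and serotonin are signals of nerves that also reach the bone marrow. Muscarinic, adrenergic, dopamine and most serotonin receptors are single proteins that pass through the membrane in a bundle of helices and act through G proteins, whereas nicotinic receptors and the serotonin receptor subunit Htr3a form ion channels. In the marrow, sympathetic fibres are known for setting the release of haematopoietic stem cells (HSCs), and the study concerns a central muscarinic route to that release through glucocorticoid hormones. The genes described here are 51 listed genes for cholinergic, adrenergic, dopamine and serotonin receptors and for the enzymes and transporters of their ligands. They were listed by name and not by a cutoff on measured values, but with earlier results of these data known. A row of the array table with a single gene symbol was matched for 44 of the 51, out of 22180 genes measured in this way. The other 7, Adra1a, Adra1d, Adra2a, Adra2b, Adrb1, Adrb3 and Adrbk1, were not analysed here.

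HSCs were sorted from steady state bone marrow of C57Bl/6 mice as cells without lineage markers, with Sca1 and Kit and without Flt3 at the surface. Cells of Chrm1-/- mice, which lack the muscarinic receptor gene Chrm1, gave 3 arrays and wild type cells gave 3 arrays, whose source name spells the strain C67Bl/6. The labels give no age, do not say how the allele was made or whether mice were pooled, and name no mouse behind a replicate. The p-values therefore rest on the spread among these arrays alone, which may be technical. Values are log2 signals of transcript clusters, the array's probe sets for a gene, and a difference of 1 is a 2-fold change. The array medians over all genes lay between 6.71 and 6.82. All 11 measured HSC marker genes, Kit and Cd34 among them, gave mean signals between 7.61 and 11.27. Some genes of the granulocyte, mast cell and erythroid lists were as bright, with Mpo at 11.31, Cpa3 at 11.26 and Car1 at 11.09. Others of these lists were dim, such as S100a8 at 5.26. These signals do not tell HSCs from other progenitors. The number of arrays limits the precision. Across all 22180 genes limma called 0 as higher and 0 as lower in Chrm1-/- after Benjamini-Hochberg adjustment (0% each), and the smallest adjusted p was 0.997.

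Most of these neurotransmitter genes gave dim signals in HSCs of both genotypes. Their median signal over the 6 arrays was 6.33, against 6.77 for all genes, and 10 of the 44 lay at or above that median of all genes. As a gauge of the signal from genes that HSCs are not known to use, the 1105 olfactory receptor genes on the array had a median of 4.72. Their 95th percentile ran from 6.83 to 7.14 over the arrays, and is called the top of the olfactory receptor range below. Only Maoa, Htr2a, Chrm1 and Chrnb4 lay above it on all 6 arrays, 9.09% of the members, against 35.9% of all genes and 2.90% of olfactory receptor genes. Signals of different clusters rest on different probes, so a rank or percentile describes a signal and not an amount of RNA. A signal above this range is also no proof of a transcript, since 3 of 12 neuron marker genes lay above it too, with Rbfox3, a neuronal RNA-binding protein, at a mean of 7.74. Of the 12 neuron markers, whose list means ran from 6.05 to 6.25 over the arrays, the nerve terminal gene Snap25 gave signals from 5.68 to 5.95. None of the 6 measured Schwann cell and glia markers lay above the range.

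**Figure D1:**
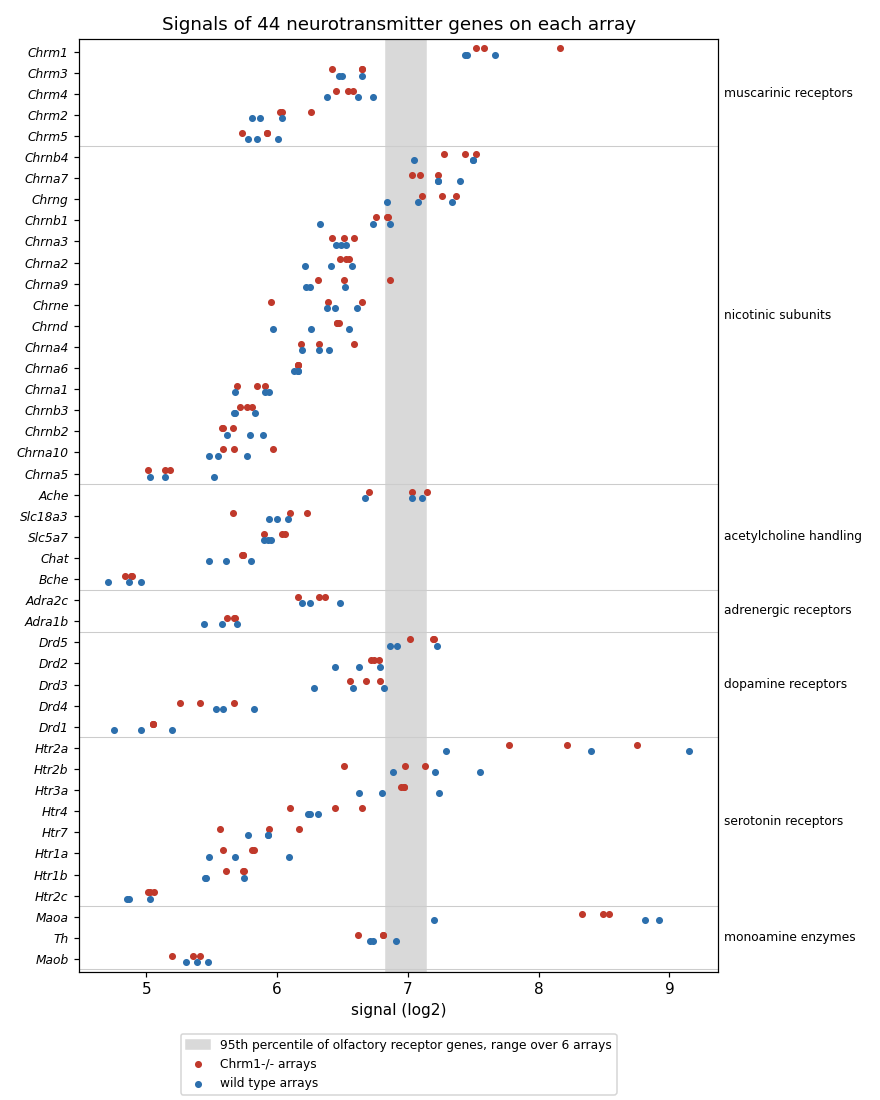
Signal (log2) of the 44 measured neurotransmitter genes, grouped by role, on each of 3 Chrm1-/- arrays (red) and 3 wild type arrays (blue), with the grey band marking where the 95th percentile of olfactory receptor genes lay over the 6 arrays (6.83 to 7.14). Maoa, Htr2a, Chrm1 and Chrnb4 lie to the right of each array's own limit, and most other genes lie to its left.

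None of the 44 genes passed the test for a difference between the genotypes. In limma 0 members passed after adjustment, the smallest adjusted p among them being 0.997, and 0 had an unadjusted p under 0.05, where 2.56% of all genes did. In 0 members did the 3 Chrm1-/- arrays lie wholly above or below the 3 wild type arrays, against 5.39% of all genes. Differences, taken as Chrm1-/- minus wild type, ran from -0.34 to 0.23 with a median of 0.05, against a median of 0.01 over all genes, and 29 members had a higher and 15 a lower mean. The 95% interval of the difference stayed within a 2-fold change in either direction for 42 members (95.5%, against 89.5% of all genes) and within 1.5-fold for 38 (86.4%, against 69.2%). The 2 members with wider intervals were Htr2a and Maoa, so for these a 2-fold difference in at least 1 direction lay within the interval. These intervals are per gene and not adjusted for the number of genes, so they do not say which differences the adjusted test could call.

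The signal of the deleted gene did not pass as lower in the cells labelled Chrm1-/-, where its mean was the higher one. Chrm1, a receptor that acts through the Gq family of G proteins, read 8.16, 7.52 and 7.58 on the Chrm1-/- arrays and 7.45, 7.44 and 7.67 on the wild type arrays. Chrm1-/- replicate 1 stood highest, and the other 2 Chrm1-/- arrays fell among the wild type ones. The difference was 0.23 ± 0.19 (SE, 95% interval -0.23 to 0.70) and came to 0.03 without Chrm1-/- replicate 1, 0.35 without Chrm1-/- replicate 2 and 0.095 with both Chrm1 clusters averaged. A further Chrm1 cluster read 5.74, 5.76 and 5.60 in Chrm1-/- and 5.80, 5.75 and 5.68 in wild type, within the olfactory receptor range on every array. Neither the deleted part of Chrm1 nor the stretch its probes cover is stated in the labels, so these signals check nothing about the genotypes.

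The remaining muscarinic receptor genes were dim in both genotypes. Chrm3, like Chrm1 a Gq-coupled receptor, read 6.65, 6.42 and 6.65 in Chrm1-/- and 6.50, 6.47 and 6.65 in wild type. Chrm4, which couples to the inhibitory Gi proteins, read 6.54, 6.45 and 6.58 in Chrm1-/- and 6.38, 6.73 and 6.62 in wild type, and the groups overlapped for both genes. Chrm2, the Gi-coupled receptor known from the heart, read 6.02, 6.04 and 6.26 in Chrm1-/- and 5.87, 5.81 and 6.04 in wild type. Its difference of 0.20 ± 0.11 (SE, 95% interval -0.07 to 0.47) had the smallest unadjusted p of the 44 members in limma, 0.119. Chrm5 averaged 5.86 ± 0.11 in Chrm1-/- and 5.88 ± 0.12 in wild type (SD, n = 3 each). No muscarinic gene passed the test in either direction, and the upper ends of the intervals for Chrm2 to Chrm5 lay at 0.47, 0.29, 0.23 and 0.23.

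Of the 16 nicotinic subunit genes, 1 lay above the olfactory receptor range on all arrays and 2 more on 5 of 6. Chrnb4, a subunit that pairs with Chrna3 in the receptors of autonomic ganglia, read 7.28, 7.52 and 7.44 in Chrm1-/- and 7.05, 7.50 and 7.50 in wild type. Its genomic neighbours on chromosome 9, Chrna3 and Chrna5, had mean signals of 6.50 and 5.17. The partner subunit gene Chrna3 stayed within the range that Chrnb4 exceeded, with signals from 6.42 to 6.59.

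Chrna7, whose product forms receptors from a single kind of subunit and is known from nerve cells and macrophages, read 7.03, 7.23 and 7.09 in Chrm1-/- and 7.23, 7.23 and 7.40 in wild type. The Chrm1-/- arrays were at or below the wild type arrays, touching them at 7.23, and the difference was -0.17 ± 0.10 (SE, 95% interval -0.41 to 0.07). Chrng, the subunit of the fetal muscle receptor, read 7.11, 7.26 and 7.37 in Chrm1-/- and 7.08, 6.84 and 7.34 in wild type. Of the other muscle subunits, Chrnb1 averaged 6.82 ± 0.05 in Chrm1-/- and 6.64 ± 0.28 in wild type (SD, n = 3 each), while Chrnd, the neighbour of Chrng on chromosome 1, averaged 6.46 ± 0.01 in Chrm1-/- and 6.26 ± 0.29 in wild type. Chrne, the subunit of the adult muscle receptor, and Chrna1, which binds acetylcholine there, had mean signals of 6.40 and 5.83.

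The neuronal subunit Chrnb2 averaged 5.61 ± 0.04 in Chrm1-/- and 5.77 ± 0.14 in wild type (SD, n = 3 each), a difference of -0.16 ± 0.10 (SE). Chrna9 and Chrna10, which form the receptor of hair cells in the inner ear, differed by 0.23 ± 0.17 (SE) and 0.14 ± 0.14 (SE) at mean signals of 6.44 and 5.67. Chrna2, Chrna4, Chrna6 and Chrnb3, subunits of brain receptors, had mean signals between 5.75 and 6.46 and differences between 0.01 and 0.12. Chrna6 read 6.16 on 5 of the 6 arrays. Such exact repeats, to the 2 deposited decimals on at least 5 arrays, occurred in 0.482% of all genes.

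The genes that make, move and break down acetylcholine were dim as well, and none of these 5 lay above the range on all arrays. Ache, the enzyme that splits acetylcholine, read 6.70, 7.15 and 7.03 in Chrm1-/- and 6.67, 7.03 and 7.11 in wild type, so that each group had 1 low and 2 higher arrays. Its difference was 0.02 ± 0.17 (SE). Bche, the related esterase of plasma, gave the lowest signal of all 44 members, 4.87 ± 0.03 in Chrm1-/- and 4.85 ± 0.13 in wild type (SD, n = 3 each). Chat, which synthesizes acetylcholine, averaged 5.74 ± 0.01 in Chrm1-/- and 5.63 ± 0.16 in wild type. The vesicular transporter gene Slc18a3, which overlaps the Chat gene on chromosome 14, and the choline uptake transporter gene Slc5a7 had mean signals of 6.00 and 5.96, with differences of -0.01 ± 0.16 (SE) and 0.07 ± 0.08 (SE).

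For the adrenergic receptors 2 of 8 listed genes were measured, so the family is described only in part. Adra1b, a Gq-coupled receptor, read 5.67, 5.68 and 5.62 in Chrm1-/- and 5.44, 5.58 and 5.69 in wild type. Adra2c, a Gi-coupled receptor, read 6.37, 6.32 and 6.16 in Chrm1-/- and 6.25, 6.19 and 6.48 in wild type. Both groups overlapped for both genes, and the differences were 0.09 ± 0.09 (SE) and -0.02 ± 0.11 (SE).

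Among the 5 dopamine receptor genes Drd5, which stimulates cAMP formation, came closest to standing clear of the range, on 5 of 6 arrays. It read 7.02, 7.20 and 7.19 in Chrm1-/- and 6.86, 6.92 and 7.22 in wild type, and its second cluster read 7.09, 7.05 and 6.93 in Chrm1-/- and 6.67, 6.63 and 7.05 in wild type. In both clusters wild type replicate 3 lay with the Chrm1-/- arrays and the other 2 wild type arrays lay below. Drd1, the other cAMP-stimulating receptor, gave 5.05 on all 3 Chrm1-/- arrays and 4.75, 4.96 and 5.20 in wild type. The Gi-coupled receptor genes Drd2 and Drd3 averaged 6.75 ± 0.03 and 6.68 ± 0.12 in Chrm1-/-, against 6.62 ± 0.18 and 6.56 ± 0.27 in wild type (SD, n = 3 each). Drd4, of the same class, went the other way at 5.45 ± 0.21 in Chrm1-/- and 5.65 ± 0.15 in wild type, a difference of -0.20 ± 0.14 (SE).

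The serotonin receptor genes held both a bright member and some of the dimmest. Htr2a, a Gq-coupled receptor known from cortex and platelets, read 8.75, 7.77 and 8.22 in Chrm1-/- and 9.15, 7.29 and 8.40 in wild type. Its arrays spanned 1.86, the widest span of the 44 members, and its spread within groups lay at percentile 97.5 of all genes. Replicate 1 was the highest and replicate 2 the lowest in both genotypes, and the difference was -0.03 ± 0.50 (SE, 95% interval -1.26 to 1.19). Among the 11 marker lists, the means of 7 T and NK cell genes were highest on the same 2 arrays, at 7.05 in Chrm1-/- replicate 1 and 7.02 in wild type replicate 1, against 6.73 to 6.85 elsewhere. The means of 6 erythroid genes were highest there too, at 8.19 and 8.16, against 7.88 to 8.06 elsewhere. In the T and NK cell list Nkg7 was the one gene above the range on all arrays, Cd3g read 7.16 in Chrm1-/- replicate 1 and 6.32 in wild type replicate 1 with 4.87 to 5.47 on the others, and Cd3e stayed between 5.86 and 6.14. Other genes of that list did not peak on both arrays. Nkg7 and Klrb1c were lowest on Chrm1-/- replicate 1, at 10.15 and 5.85, and Cd4 and Cd8a were lowest on wild type replicate 1, at 6.20 and 6.09. Il7r read 7.22, 7.17 and 7.25 in Chrm1-/- and 8.13, 7.62 and 5.99 in wild type. In the erythroid list Slc4a1 was lowest on Chrm1-/- replicate 1, at 7.45. The means of 8 mast cell and basophil genes were highest on Chrm1-/- replicate 1, at 6.95, and read 6.87 and 6.88 on wild type replicates 1 and 3. In that list Mcpt8 read 10.56, 9.33 and 6.72 in Chrm1-/- and 9.93, 8.35 and 9.30 in wild type. Of the Chrm1-/- arrays Cpa3 was lowest on replicate 1, at 11.26. Over all arrays Cpa3 was lowest on wild type replicate 3, at 10.47, where Gzmb was highest, at 7.82. The means of 7 megakaryocyte genes lay between 7.22 and 7.45. The sort took cells without lineage markers, and its purity was not measured here. The part of cells of these types in the spread of Htr2a was not tested. In sorted pools fewer cells of a type and less RNA per cell cannot be told apart.

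Htr2b, a Gq-coupled receptor of heart and gut, had the most negative difference of the 44 members. It read 7.13, 6.98 and 6.51 in Chrm1-/- and 6.89, 7.21 and 7.55 in wild type, so the groups overlapped. The difference of -0.34 ± 0.23 (SE, 95% interval -0.90 to 0.21) did not pass. Htr3a, the channel subunit, read 6.97, 6.97 and 6.95 in Chrm1-/- and 6.63, 6.80 and 7.24 in wild type, with the Chrm1-/- arrays between the wild type ones. Htr4 and Htr7, which raise cAMP, averaged 6.40 ± 0.28 and 5.89 ± 0.31 in Chrm1-/- and 6.27 ± 0.04 and 5.88 ± 0.09 in wild type (SD, n = 3 each). The Gi-coupled Htr1a and Htr1b and the Gq-coupled Htr2c, on chromosome X, had mean signals of 5.75, 5.63 and 4.97.

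Maoa, the outer mitochondrial membrane enzyme that oxidizes serotonin and noradrenaline, had the highest signal of the 44 members, at percentile 79.6 of all genes. It read 8.33, 8.49 and 8.54 in Chrm1-/- and 8.81, 8.92 and 7.20 in wild type. Wild type replicate 3 stood alone at the bottom, while the other 2 wild type arrays lay above all Chrm1-/- arrays. The difference was 0.14 ± 0.46 (SE, 95% interval -0.98 to 1.27). Without wild type replicate 3 it was -0.41 ± 0.11 (SE), with an unadjusted p of 0.0119 in limma and no adjusted call. In that fit 4.91% of all genes had an unadjusted p under 0.05. Over 15 alternative settings the Maoa difference ran from -0.45 to 0.45, and in 3 of them it had the other sign than in the reported fit. Maob, its neighbour on chromosome X, which prefers other amines, averaged 5.32 ± 0.11 in Chrm1-/- and 5.39 ± 0.08 in wild type (SD, n = 3 each). Th, the rate-limiting enzyme of catecholamine synthesis, read 6.62, 6.81 and 6.81 in Chrm1-/- and 6.71, 6.73 and 6.91 in wild type, within the olfactory receptor range on every array.

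**Figure D2:**
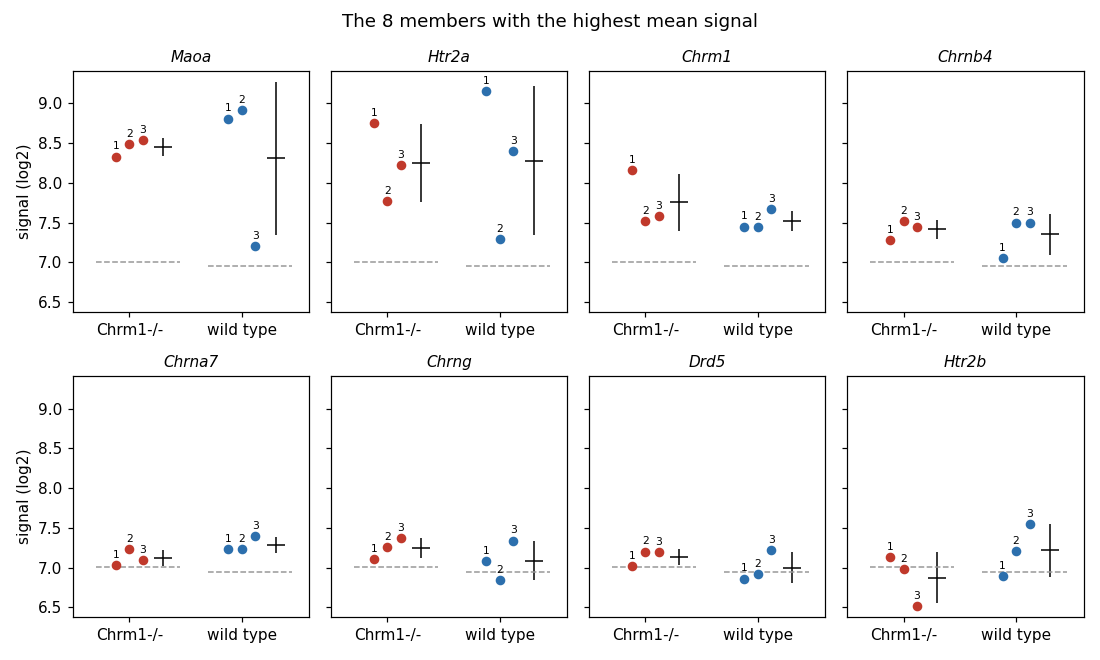
Signal (log2) of the 8 members with the highest mean, with 3 Chrm1-/- arrays (red) left of 3 wild type arrays (blue), replicate numbers beside the points, and the mean ± SD as a black cross. Dashed lines give the mean over the group's arrays of the 95th percentile of olfactory receptor genes. Maoa is low on wild type replicate 3 alone, and Htr2a spreads by more than 1 unit within wild type.

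In the order of mean signals, each of the 43 pairs of neighbours overlapped in their arrays. The dimmest member above the olfactory receptor range was Chrnb4 with a mean of 7.38, and next below stood Chrna7 with 7.20, Chrng with 7.17, Drd5 with 7.07 and Htr2b with 7.04, each above the limit on 5 of 6 arrays. Chrna7 and Drd5 missed it on Chrm1-/- replicate 1 alone, Htr2b on Chrm1-/- replicate 3 alone and Chrng on wild type replicate 2 alone. With the 90th percentile as the limit 9 members stood above it, against 48.1% of all genes, and with the 99th percentile 0 did, against 19.4%.

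Many dim members peaked on 1 array, wild type replicate 3. Of the 40 members not above the range, 18 (45.0%) had their single highest value on that array, against 24.4% of olfactory receptor genes and 22.3% of all genes. Without it, 17 members (38.6%) had groups that did not overlap, 16 of them higher in Chrm1-/-, where 18.7% of all genes did not overlap. With each array also centred on its median, these counts were 16 members, 11 of them higher and 5 lower, against 20.5% of all genes. At an unadjusted p under 0.05 in limma, leaving out wild type replicate 3 gave Chrnd, Htr1b, Htr3a and Maoa (4 of 44, against 4.91% of all genes), and 0 passed after adjustment. Both comparisons without overlap were chosen after seeing the data. The same array had the highest mean of 7 monocyte and macrophage genes, 7.84 against 7.34 to 7.54 on the others. Within that list 4 genes lay above the range on all arrays, among them the lysosomal protein gene Cd68, which read 10.25 there and 8.16 to 9.0 elsewhere, while Mertk, a receptor of macrophages that clear dead cells, stayed between 5.01 and 5.30. Cx3cr1, also above the range on all arrays, was lowest on wild type replicate 3 at 7.72, and Ccr2 read 7.09 there and 7.24 on wild type replicate 2. The granulocyte, B cell and neuron lists also had their highest means on that array, 7.53, 6.33 and 6.25, and so did the median of all genes, 6.82. Genes within these lists differed. The granulocyte gene Ngp and the B cell gene Cd79a were highest there, at 7.32 and 7.77, while the granulocyte gene Camp was lowest there, at 4.56. The B cell gene Vpreb1 read 5.27 there and 5.57 on wild type replicate 2. The neuron gene Syt1 read 7.27 there and 7.40 on Chrm1-/- replicate 3. The part of these lists and of the array's median in the pattern was not tested.

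**Figure D3:**
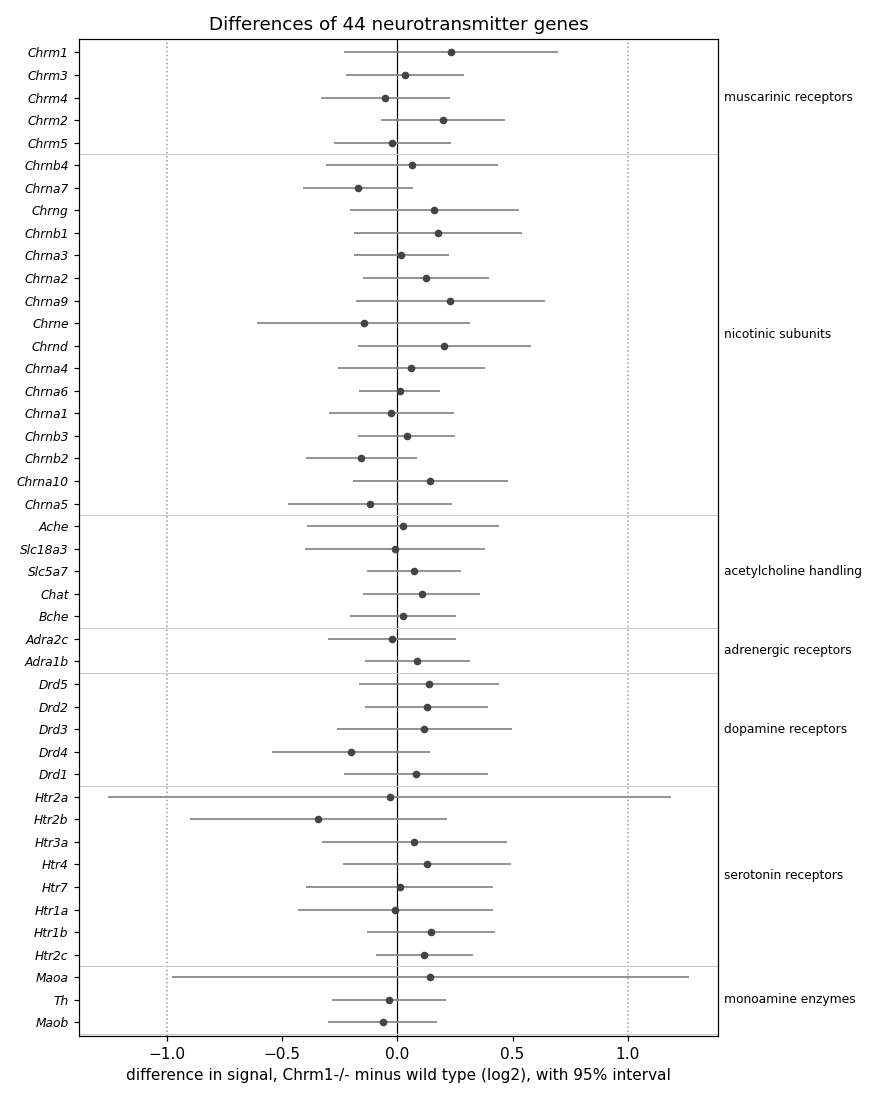
Difference in signal, Chrm1-/- minus wild type (log2), of the 44 members by role, with 95% intervals from limma and dotted lines at 2-fold lower and 2-fold higher. All intervals include 0, and only those of Htr2a and Maoa reach past a dotted line.

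Promoter windows from RefSeq (GRCm38.p6) were matched for 36 of the 44 members and for 16990 genes with a signal. The dinucleotide CG marks promoters of the CpG island type, which many widely used genes carry. In the 250 bases before the start, members held a median of 10 CG and all genes 11. Of genes with at least 15 CG, 57.3% lay above the olfactory receptor range and their median signal was 7.65. Of the 11 members with at least 15 CG, 0 lay above it, and their median signal was 6.33. Between 5 and 14 CG, 2 of 16 members (12.5%) lay above it, against 39.1% of all genes. For windows with at most 4 CG the shares above the range were alike, 11.1% of 9 members and 10.9% of all genes. Their median signals were 6.40 and 5.72. This compares signals of unlike clusters and is a description with no test.

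The windows below are shown because they set the 3 matched members above the range beside Htr7, the member with most CG among those within it, and capitals mark each CG. They are written 5′ to 3′ on the gene's strand. Maoa has 11 CG at chrX:16619448-16619697 (plus strand), Htr2a 4 at chr14:74640624-74640873 (plus strand), Chrnb4 8 at chr9:55048545-55048794 (minus strand) and Htr7 41 at chr19:36057361-36057610 (minus strand).
Maoa: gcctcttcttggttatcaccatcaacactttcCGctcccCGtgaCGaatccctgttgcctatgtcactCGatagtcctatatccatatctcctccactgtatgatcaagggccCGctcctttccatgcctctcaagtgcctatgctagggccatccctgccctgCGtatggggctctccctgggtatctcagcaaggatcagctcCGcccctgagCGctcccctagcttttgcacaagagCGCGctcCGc
Htr2a: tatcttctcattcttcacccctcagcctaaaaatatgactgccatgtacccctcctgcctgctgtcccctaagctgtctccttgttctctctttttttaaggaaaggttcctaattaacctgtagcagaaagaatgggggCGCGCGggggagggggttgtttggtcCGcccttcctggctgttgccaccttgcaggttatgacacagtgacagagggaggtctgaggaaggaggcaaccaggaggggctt
Chrnb4: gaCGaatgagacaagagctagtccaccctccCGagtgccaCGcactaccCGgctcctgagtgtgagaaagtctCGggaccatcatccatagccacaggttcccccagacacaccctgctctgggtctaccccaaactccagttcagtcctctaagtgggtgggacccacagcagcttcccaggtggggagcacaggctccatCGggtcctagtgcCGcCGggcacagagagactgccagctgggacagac
Htr7: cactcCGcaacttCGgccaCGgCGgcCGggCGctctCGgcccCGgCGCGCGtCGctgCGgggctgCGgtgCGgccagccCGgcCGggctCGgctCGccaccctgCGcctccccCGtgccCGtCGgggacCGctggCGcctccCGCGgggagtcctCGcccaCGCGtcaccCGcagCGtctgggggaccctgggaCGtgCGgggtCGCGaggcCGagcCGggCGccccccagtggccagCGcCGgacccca

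The densest of these 4 windows belonged to a gene with a mean signal of 5.89 (Htr7) and the sparsest to one with 8.26 (Htr2a). Htr7 was picked as a dense window within the range, so this contrast follows in part from the choice. The TATA box letters TATAAA, searched on both strands, were found in the windows of Chrnb1 and Slc5a7, 5.56% of the 36 members, against 11.5% of all genes. The cAMP response element TGACGTCA, which reads the same on both strands and contains a CG, was found in the window of Th, 2.78% of members, against 2.14% of all genes. A match describes letters in a window and not a site in use.

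**Figure D4:**
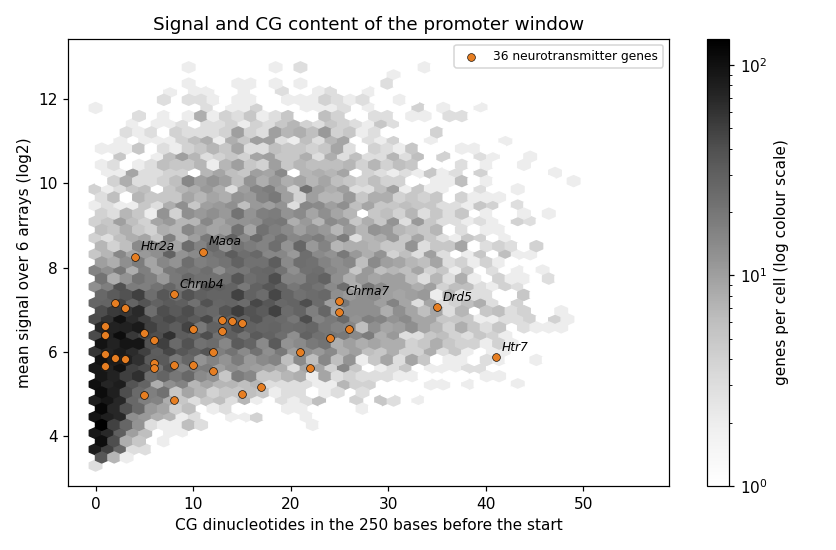
Mean signal over 6 arrays (log2) against the number of CG dinucleotides in the 250 bases before the start, for 16990 genes (grey cells, log colour scale) and 36 neurotransmitter genes (orange points). The 11 members with at least 15 CG have signals of at most 7.20, while Maoa and Htr2a are the brightest members at 11 and 4 CG.

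Of 115 measured genes in 8 lists of relays and other genes related to such receptors, 54 (47.0%) lay above the olfactory receptor range, against 4 of the 44 members, a description with no test. Of the 115, 0 passed after adjustment, and 2 had an unadjusted p under 0.05 in limma, both lower in Chrm1-/-, against 2.56% of all genes, with 291 higher and 276 lower. Among Gq, phospholipase C and protein kinase C genes, 14 of 20 were above the range, and 13 had a higher and 7 a lower mean in Chrm1-/-. Prkce, a calcium-independent protein kinase C, read 7.41, 7.41 and 7.52 in Chrm1-/- and 7.66, 7.78 and 7.78 in wild type, without overlap. Its difference was -0.29 ± 0.08 (SE), with an unadjusted p of 0.013 and an adjusted p of 0.997 in limma. Grk5, a kinase that switches off active receptors, read 6.70, 6.46 and 6.29 in Chrm1-/- and 7.23, 7.76 and 6.64 in wild type, a difference of -0.73 ± 0.29 (SE) with overlap of the groups.

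Of the inhibitory and beta-gamma G protein genes, 10 of 17 lay above the range, and Gng5, a gamma subunit, had the smallest p there with a difference of -0.26 ± 0.15 (SE). For the cAMP pathway it was 12 of 23, with the adenylyl cyclase gene Adcy4 at -0.17 ± 0.09 (SE). Receptor desensitization genes stood at 7 of 15. In monoamine synthesis and transport 7 of 15 lay above the range, with Qdpr, which recycles the cofactor of Th, at -0.23 ± 0.11 (SE). For nicotinic assembly factors and modulators the count was 1 of 8, and the muscle receptor clustering gene Rapsn differed by 0.11 ± 0.08 (SE). Other serotonin and histamine receptors gave 0 of 10, with Htr5a at 0.23 ± 0.16 (SE). In choline supply 3 of 7 lay above the range, and the transporter-like gene Slc44a5 differed by 0.12 ± 0.09 (SE). Median differences of these 8 lists lay between -0.03 and 0.06.

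**Figure D5:**
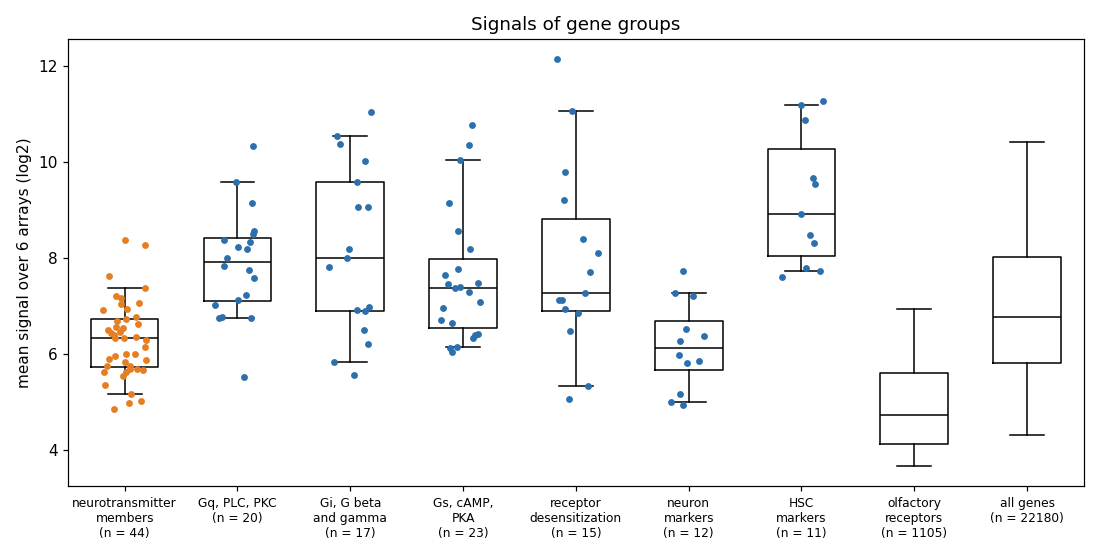
Mean signal over 6 arrays (log2) by gene group, with boxes for the quartiles, whiskers for the 5th and 95th percentiles and a point per gene in groups of under 100 genes. The 44 neurotransmitter genes have a median of 6.33, below the 4 signal relay groups (medians from 7.28 to 8.0) and HSC markers (8.92), near neuron markers (6.13) and above olfactory receptor genes (4.72).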

How the data were processed

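RNA from sorted HSCs was amplified and hybridised to Affymetrix mouse gene ST arrays, 3 per genotype, and genotypes were taken from the labels. The authors processed the arrays with Affymetrix transcriptome analysis software, per the series design text, which does not say that the deposited table is its output. Per the labels no scale is named, and the deposited values, 1 per transcript cluster and array as made by the authors, were read as log2 because they run from 3.02 to 13.67. No source used here states the summarization or normalization.

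Of 41345 rows, 23521 had 1 gene symbol in the platform annotation, and the row of highest mean was kept per gene. All genes were fitted with limma 3.58.1 in R 4.3.3, with no filter on dim genes because most members are dim, two-sided, with Benjamini-Hochberg adjustment over all genes at a threshold of 0.05. Standard errors and 95% intervals are limma's. The members and gene lists were chosen with earlier results of these data known. Named genes are Chrm1, members above the range, and per list the genes of smallest p; further members were named by role after their values were seen. Of several promoter windows of a gene, the one with most CG was kept. The fit was tested on simulated data. Alternatives covered filters, normalization, moderation, weights, a replicate block and leaving out each array. Tables and plots used Python 3.11.15, pandas 2.3.3, numpy 2.4.6 and matplotlib 3.10.9.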

Additional observations from a re-analysis of the deposited data

How the results depend on the processing

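With 3 arrays per genotype, 15 alternative settings left the count of members past the adjusted threshold in limma at 0. The count at an unadjusted p under 0.05, 0 in the reported fit, ran from 0 to 4 on leaving out an array: it was 4 without wild type replicate 3 (9.09%, against 4.91% of all genes), 2 with median centring added after seeing the data (4.55%, against 4.47%), and 1, Htr4, without Chrm1-/- replicate 3 (2.27%, against 2.71%). The members whose groups did not overlap numbered 4 (9.09%) under quantile normalization and under median centring (Chrm2, Chrna7 and Chrnb2 in both), against 7.9% and 6.94% of all genes. On leaving out an array they numbered from 1 to 17: 17 without wild type replicate 3 (38.6%, against 18.7%; 16 with median centring added) and at most 3 (6.82%) without any other array, against 11.9% to 14.6% of all genes. The members above the olfactory receptor range numbered 9 at the 90th and 0 at the 99th percentile, and 3 with the mean of all rows, where Chrm1 dropped out. Pathway genes at an unadjusted p under 0.05 numbered 4 with array weights and with the mean of all rows, 1 with median centring, no moderation and quantile normalization, and from 2 to 9 on leaving out an array (9 without wild type replicate 3, 7 with median centring added). Same-numbered arrays of the genotypes did not deviate together over all genes, so the numbers were not treated as pairs. Correlations of their deviations ran from -0.0504 to 0.0207, against -0.0562 to 0.0827 for arrays of unlike number. With the replicate block pathway genes numbered 3, the Chrm1 difference was 0.23, and no call changed. The SE of Htr2a, whose replicates had the same order in both genotypes, was 0.21 with the block and 0.50 without it. Genes in all at an unadjusted p under 0.05 in limma numbered 332 with the filter at the median, 857 with array weights and 1089 without wild type replicate 3, against 567. Without Chrm1-/- replicate 3, 1 gene passed the adjusted threshold. Of 626 alternative values of member differences 57 had the other sign, none past the adjusted threshold, and 21 members kept their sign throughout. The cause of these shifts was not tested.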
